A study of Mus musculus with 5 samples.

Results

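The transcripts described are those of 10 heat shock protein genes of the mouse cytosol and mitochondria, Hsp90aa1, Hsp90ab1, Stip1, Hspa8, Hspa4, Hsph1, Dnaja1, Hspa9, Hspd1 and Hspe1, chosen by gene symbol from the 55385 genes counted in each library. All 10 passed the filter on low counts, as did 10287 genes in all. They were measured by Surface-seq in EL4 cells, an established mouse T lymphoma line grown in suspension, and the labels give no genotype or treatment that differs between the groups. All 5 labels also carry a protocol for labelling cells with ethynyl uridine for imaging. In Surface-seq the plasma membrane is isolated and wrapped around polymer particles, and the RNA that stays with the particles is sequenced. In variation A (3 libraries, A1, A2 and A3) all RNA was extracted from the particles before adaptors were joined to it. In variation B (2 libraries, B1 and B2) the 3′ adaptor was first ligated to RNA exposed on the outside of intact particles. The comparison of B with A was made in the study to find RNA that faces outwards. The variations also differ in how RNA was purified and libraries were made, and these steps cannot be told apart from the side of the membrane.

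Heat shock proteins are molecular chaperones, which bind unfolded or partly folded proteins. In the cytosol, Hsp70 proteins take up clients brought by J proteins, release them with the help of nucleotide exchange factors, and pass some of them to the Hsp90 dimer through an adaptor. In the mitochondrial matrix, a separate Hsp70 draws in imported chains and the Hsp60 barrel with its Hsp10 lid folds them. Many of these genes are transcribed at a basal level in growing cells and are induced by heat through heat shock factors, which bind heat shock elements in promoters.

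The libraries differed in depth. The counts on genes came to 2301017, 4502174 and 1187117 for A1, A2 and A3, against 21862003 for B1 and 22980172 for B2. Protein-coding genes held 39.4%, 22.6% and 22.0% of the counts for A1, A2 and A3, against 63.6% for B1 and 64.6% for B2. The part of these gaps in depth and composition in the results below was not tested beyond the scalings given. Values are therefore given as effective CPM, the depth-scaled count (CPM) taken on the library size after TMM scaling, which is meant to remove such differences in composition. A floor of 3 counts corresponds to an effective CPM of 1.49, 1.17 and 4.44 for A1, A2 and A3, against 0.0732 for B1 and 0.0710 for B2. The reads come from PCR and carry no molecular identifiers, so they cannot be taken as independent molecules, and floors and intervals cover counting error only. Nothing in the labels says that the libraries of a variation came from separate cultures, so p-values measure the spread between these libraries, which may be technical.

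A1 stood apart from the other libraries of variation A. Across the 10287 genes tested, the Pearson correlation of log2 effective CPM was 0.91 between A2 and A3, 0.84 between A1 and A2, 0.80 between A1 and A3, and 0.80 between A1 and B1. It was 0.97 between B1 and B2, and 0.66 between A2 and B1. Genes are not independent replicates, and these values are a description. Fold changes of the heat shock members are given with A1 and without it.

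The cell type was checked with marker genes. All 7 T lineage markers were counted in every library, with a summed CPM on the library total of 639, 379 and 361 for A1, A2 and A3, against 1787 for B1 and 1795 for B2, while in effective CPM the sum was 729.5, 664 and 634 for A1, A2 and A3, against 953 for B1 and 976 for B2, and Thy1, a surface glycoprotein of T cells, was the most abundant per kilobase. Of these 7, edgeR called Cd3e and Cd3g higher in variation B, Cd3g with a log2 fold change of 2.00 (adjusted p of 0.00982), and Trbc2 lower, at -1.17 (edgeR adjusted p of 0.0312). Without A1, Ptprc was also called higher and Trbc2 was not called, without A2 or A3 Cd3g alone was called, and without B1 or B2 Cd3e, Cd3g and Trbc2 all lost their calls. Of the B lineage markers, Ms4a1 had 0 counts throughout, Cd79a had 10 counts, all in B1, and Cd79b had 1 count, in A2. Of the erythroid markers, Hba-a1 reached at most 0.274 CPM and Hbb-bs had 0 counts throughout. The 3 fibroblast markers summed to at most 0.869 CPM, with Col1a2 and Dcn at 0 and Col1a1 the most abundant. The 4 myeloid markers summed to 0, 2.67 and 1.68 CPM for A1, A2 and A3, against 4.53 for B1 and 5.79 for B2, but in effective CPM to 0, 4.67 and 2.96 for A1, A2 and A3, against 2.42 for B1 and 3.15 for B2, where the variations overlap. Lyz2 had 0 counts in all variation A libraries, 73 in B1 and 133 in B2, and its effective CPM of 1.78 in B1 and 3.15 in B2 was above the floors of A1 and A2 and below that of A3. Csf1r went the other way, at an effective CPM of 0, 2.72 and 2.96 for A1, A2 and A3, against 0.122 for B1 and 0 for B2, from 7 counts or fewer in each, and Itgam was at 1.56 in A2 and 0.488 in B1 and at 0 elsewhere. With all libraries Lyz2 was the only myeloid marker tested. It was called higher by edgeR (adjusted p of 0.0365) and not by DESeq2, lost its call without A2, A3, B1 or B2, and its part in the results below was not tested.

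Among the heat shock transcripts, Hspa9 was higher in variation B, and Hsp90ab1 and Hspa8 were lower. These were the 3 of 10 called by the quasi-likelihood test of edgeR, where a call needs a Benjamini-Hochberg adjusted p below 0.05 together with more than a 2-fold change. The 1 member called higher stands beside 11.0% of all genes tested (1135 of 10287), and the 2 called lower beside 12.4% (1276 of 10287). The median log2 fold change was -0.33 over the 10 members and 0.05 over all genes tested, and leaving out A1 turned the order, with 0.56 over the members and 0.16 over all genes. DESeq2 with all libraries also turned it, with -0.22 over the members and -0.91 over all genes with any count, of which 15015 had an adjusted p. That median takes in low-count genes that the edgeR filter left out, so it is not over the same genes as the 0.05. In effective CPM, both B libraries were above all A libraries for 3 members, Hsp90aa1, Hspa4 and Hspa9, beside 31.2% of all genes tested, and below all A libraries for 3 members, Hsp90ab1, Hspa8 and Stip1, beside 26.7%. The other 4 members overlapped between the variations. With CPM on library totals the count was 5 members with both B libraries above (Hsp90aa1, Hspa4, Hsph1, Stip1 and Hspa9), beside 75.0% of all genes tested, and 0 below, beside 5.06%, so these orders depend on the scaling. In bulk libraries, RNA from fewer cells or particles and less RNA in each cannot be told apart.

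**Figure D1:**
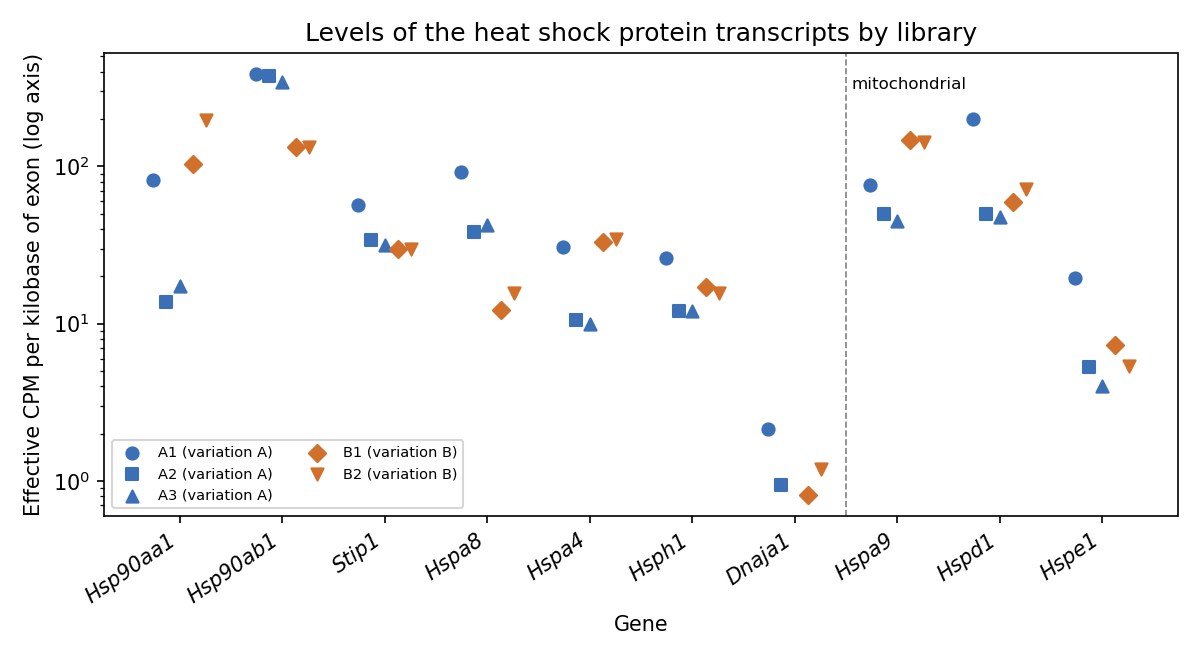
Effective CPM per kilobase of exon (log axis) of each heat shock protein gene in the 5 libraries, with blue symbols for variation A, orange for variation B and mitochondrial genes right of the dashed line. Hsp90ab1 sits highest in the A libraries, Hsp90aa1 and Hspa9 are above it or near it in the B libraries, and the value of Dnaja1 in A3, at 0, is not drawn.

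The 3 called members lost or kept their calls with the libraries used. Without A1, edgeR called 3 members higher (Hsp90aa1, Hspa4 and Hspa9) and the same 2 lower, beside 20.8% and 15.0% of the 12127 genes then tested. Leaving out A2 or A3 left Hspa8 as the only member called, and leaving out B1 or B2 left none called by edgeR, with 3 and 2 members at an unadjusted p under 0.05. The fold changes moved little when these calls were lost. Without A2, A3, B1 or B2, the log2 fold change of Hsp90ab1 ran from -1.49 to -1.40, that of Hspa9 from 1.25 to 1.34 and that of Hspa8 from -2.25 to -1.90. A member not called is not shown to be equal between the variations. With library totals in place of TMM, the median over all genes moved from 0.05 to 1.50 on the log2 scale, calls split into 5668 higher (55.1%) and 301 lower (2.93%), and the members called were Hsp90aa1, Hspa4 and Hspa9, all higher. Upper-quartile scaling gave a median of -0.08. Over all genes with any count, the median was -0.91 with DESeq2, where 15015 of them had an adjusted p. With edgeR and no filter on low counts it was 0.46 (25327 genes).

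The Hsp90 pair had fold changes of opposite sign. Hsp90aa1 (ENSMUSG00000021270.13, chromosome 12, 110690605 to 110702728, minus strand of GRCm38) encodes the more inducible cytosolic Hsp90. Its effective CPM was 321, 53.7 and 68.1 for A1, A2 and A3, against 406 for B1 and 779 for B2. Both B libraries were above all A libraries, but A1 was closer to B1 than to A2 or A3. On the log2 scale the fold change was 1.99, with an approximate SE of 0.72, and the adjusted p of edgeR was 0.0746, so it was not called. Without A1 the log2 fold change was 3.44, with an edgeR adjusted p of 4.2e-06, and over the 13 alternatives the adjusted p ran from 4.2e-06 to 0.352. It was called in 5 of these, without A1, with DESeq2 (adjusted p of 0.0278), with library totals (0.0300), with no filter on low counts (0.0422) and with the replicate number as a block (0.0389).

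Hsp90ab1 (ENSMUSG00000023944.14, chromosome 17, 45567775 to 45573271, minus strand) encodes the constitutive Hsp90. It stood at 1159, 1129.9 and 1035 effective CPM for A1, A2 and A3, against 395 for B1 and 399 for B2. The A libraries lay close together, A1 included, and all were above both B libraries. The log2 fold change was -1.48 ± 0.36 (approximate SE), with an edgeR adjusted p of 0.0219, and it was -1.32 without A1. It lost its call in 6 of 13 alternatives, with library totals, with the replicate number as a block (-1.53, adjusted p of 0.172) and without A2, A3, B1 or B2. On library totals the CPM was 1015, 645 and 589 for A1, A2 and A3, against 741 for B1 and 733 for B2, which overlap, and the log2 fold change was then -0.02, with an edgeR adjusted p of 0.966, the highest of its alternatives, while DESeq2 gave the lowest, 4.36e-07.

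Stip1 encodes Hop, the adaptor that holds Hsp70 and Hsp90 together. Its effective CPM was 119, 71.6 and 66.7 for A1, A2 and A3, against 63.0 for B1 and 63.0 for B2. The B libraries were below all A libraries by a small margin against A3. A log2 fold change of -0.46 ± 0.33 (approximate SE) was not called, with an edgeR adjusted p of 0.330, and without A1 it was -0.03. With library totals the order turned, at a CPM of 104, 40.9 and 37.9 for A1, A2 and A3, against 118 for B1 and 116 for B2, and the log2 fold change was 0.94, also not called.

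Of the Hsp70 proteins, Hspa8 (ENSMUSG00000015656.17, chromosome 9, 40800984 to 40810087, plus strand) encodes Hsc70, the constitutive cytosolic Hsp70. It had an effective CPM of 397, 163 and 182 for A1, A2 and A3, against 52.3 for B1 and 67.0 for B2. Every A library was above both B libraries, and A1 was the highest. Its log2 fold change was -2.06 ± 0.46 (approximate SE), with an edgeR adjusted p of 0.0171, and without A1 it was -1.40, with an adjusted p of 8.46e-05. With library totals it was -0.71 and was not called, with an edgeR adjusted p of 0.354, the highest of its alternatives.

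Hspa4 and Hsph1 encode Hsp110 proteins, which act as nucleotide exchange factors of Hsp70. Hspa4 stood at 169.6, 58.7 and 54.8 effective CPM for A1, A2 and A3, against 183 for B1 and 191 for B2. Both B libraries were above all A libraries, with A1 close below them. Its log2 fold change of 0.97 ± 0.48 (approximate SE) was not called with all libraries, at an edgeR adjusted p of 0.167, and was 1.82 without A1, at 1.04e-05, the lowest of a range that reached 0.421.

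Hsph1 had an effective CPM of 189.9, 87.5 and 87.4 for A1, A2 and A3, against 124 for B1 and 114 for B2. The B libraries fell between A1 and the other A libraries. With all libraries the log2 fold change was -0.04 ± 0.39 (approximate SE), with an edgeR adjusted p of 0.954, and it changed sign under 6 of 13 alternatives. Without A1 it was 0.57, with an edgeR adjusted p of 0.0179, and the fold stayed under the limit for a call.

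Dnaja1 encodes a J protein that brings clients to Hsp70. It was the least abundant member per kilobase of exon in the mean of each variation, with 37, 21 and 0 counts for A1, A2 and A3, against 290 for B1 and 436 for B2. In effective CPM these were 18.3, 8.17, 0, 7.08 and 10.3, and the 0 in A3 allows up to 4.44. The variations overlapped. The log2 fold change was -0.21 with all libraries (edgeR adjusted p of 0.845) and 0.72 without A1 (0.384). Its exons share 608 bases with Smu1 on the other strand, and reads there were left out by the counting, so the level is uncertain.

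Of the mitochondrial members, Hspa9 (ENSMUSG00000024359.10, chromosome 18, 34937414 to 34954357, minus strand) encodes mortalin, the Hsp70 of the matrix. It stood at 329, 216 and 193 effective CPM for A1, A2 and A3, against 629 for B1 and 618 for B2. Both B libraries were above all A libraries. Its fold change, on the log2 scale, was 1.34 ± 0.34 (approximate SE), with an edgeR adjusted p of 0.0272, and it was 1.72 without A1 and 2.74 with library totals. Over the 13 alternatives the sign stayed positive, and the edgeR or DESeq2 adjusted p ran from 1.08e-05 to 0.205, with 5 alternatives not called, the block by replicate number (0.205) and those without A2, A3, B1 or B2.

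Hspd1 encodes Hsp60, and Hspe1 encodes its Hsp10 partner. Hspd1 had an effective CPM of 530.2, 131 and 126 for A1, A2 and A3, against 157 for B1 and 189 for B2. The B libraries lay above A2 and A3 and below A1, and the log2 fold change was -0.61 with all libraries and 0.55 without A1. Its edgeR adjusted p was 0.489 with all libraries and 0.0261 without A1, where the fold stayed under the limit, and over its alternatives it ran up to 0.758.

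Hspe1 was counted 58, 20 and 4 times for A1, A2 and A3, against 444 for B1 and 333 for B2, which is 28.8, 7.78, 5.92, 10.8 and 7.88 effective CPM. The same order was seen, with A1 the highest and the variations overlapping. The edgeR adjusted p was 0.412, with a log2 fold change of -0.68 ± 0.59 (approximate SE) that was 0.49 without A1.

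**Figure D2:**
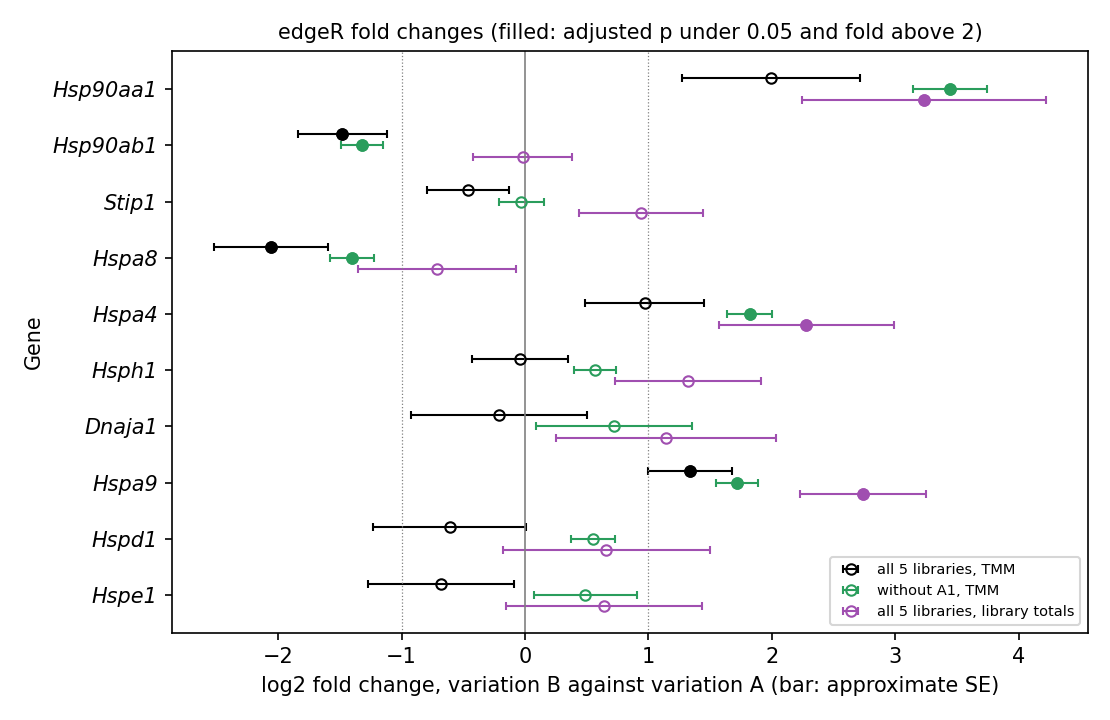
The log2 fold change of variation B against variation A from edgeR for each member (bars, approximate SE; filled symbols, called), with all libraries and TMM in black, without A1 in green and with library totals in purple. Hspa9 is right of 0 in all 3 and Hspa8 left of 0 in all 3, while Hspd1, Hspe1, Hsph1 and Dnaja1 change side without A1.

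Levels were compared between genes per kilobase of exon. Reads shared with copies or overlapping genes were left out, so Hspa8, Hsp90aa1, Hspd1, Hspe1 and Dnaja1 may stand too low in this order. In variation A the mean effective CPM per kilobase was highest for Hsp90ab1 at 369 ± 21.5 (SD, n = 3), then 99.3 ± 87.8 for Hspd1, 57.5 ± 30.1 for Hspa8 and 57.1 ± 17.0 for Hspa9. Without A1, Hspd1 was at 48.6, Hspa9 at 47.4 and Hspa8 at 40.2, against 361 for Hsp90ab1. With A1 included, the values of neighbours after Hsp90ab1 overlapped, except for Hspe1 (19.5, 5.28 and 4.02 for A1, A2 and A3) above Dnaja1 (2.13, 0.947 and 0). Overlap between libraries does not exclude a steady order within them. Hspa9, for example, was above Stip1 in each A library. With A1 left out, the values of Hspd1 and Hspa9 in A2 and A3 overlapped. Those of later neighbours, Hspa9 and Hspa8 or Stip1 and Hsp90aa1 among them, did not. In variation B the order was Hsp90aa1 at 151 ± 67.1 (SD, n = 2), Hspa9 at 145 ± 1.84, Hsp90ab1 at 132 ± 0.839 and Hspd1 at 65.5 ± 8.69, and the first 3 lay within the spread of Hsp90aa1. Dnaja1 was last in both variations.

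The share of each gene among the 10, in counts per kilobase, does not depend on scaling between libraries. Hsp90ab1 held 39.7%, 63.8% and 62.2% of it for A1, A2 and A3, against 24.4% for B1 and 20.5% for B2. Hspa9 held 7.86%, 8.48% and 8.05% for A1, A2 and A3, against 27.0% for B1 and 22.1% for B2. So Hsp90ab1 took a smaller share and Hspa9 a larger share in both B libraries than in any A library. The share was likewise larger for Hsp90aa1 and Hspa4, and smaller for Hspa8 and, by a small margin, Stip1. Hsp90aa1 held 8.41%, 2.31% and 3.12% for A1, A2 and A3, against 19.1% for B1 and 30.6% for B2. Shares of a whole depend on one another, so a smaller share of Hsp90ab1 raises the others, and these are not separate results. Mitochondrial members held 27.2% of the counts on the 10 genes in A1 (95% Wilson interval 26.2 to 28.3), 18.4% in A2 (17.3 to 19.5), 17.8% in A3 (15.8 to 20.1), 39.3% in B1 (39.0 to 39.6) and 33.4% in B2 (33.1 to 33.7). Of these members, only Hspa9 had a larger share of the counts per kilobase in both B libraries than in any A library. Hspd1 held 20.6%, 8.37% and 8.59% for A1, A2 and A3, against 11.0% for B1 and 11.0% for B2. Hspe1 overlapped between the variations likewise.

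Counts on the 10 genes together made up 0.286% of all counts in A1 (95% Wilson interval 0.279 to 0.293), 0.110% in A2 (0.107 to 0.113), 0.103% in A3 (0.0978 to 0.109), 0.380% in B1 (0.377 to 0.383) and 0.448% in B2 (0.446 to 0.451). As a share of protein-coding counts they made up 0.726%, 0.487% and 0.470% for A1, A2 and A3, against 0.597% for B1 and 0.694% for B2. The B libraries exceeded all A libraries on the first total, and on the second A1 was the highest. Without rRNA and mitochondrial genes in the total, the share was 0.589%, 0.240% and 0.225% for A1, A2 and A3. It was then 0.507% for B1 and 0.607% for B2, so the variations overlapped.

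Ratios of 2 genes within a library are also free of scaling. Hsp90aa1 to Hsp90ab1, in counts, was 0.277, 0.0475 and 0.0658 for A1, A2 and A3, against 1.03 for B1 and 1.95 for B2. Hspa8 to Hspa9, the cytosolic against the mitochondrial Hsp70, was 1.20, 0.757 and 0.946 for A1, A2 and A3, against 0.0831 for B1 and 0.108 for B2. Hsph1 to Hspa4 was 1.12, 1.49 and 1.59 for A1, A2 and A3, against 0.680 for B1 and 0.599 for B2. In these 3 pairs the variations did not overlap, with log2 differences (B minus A) of 3.89, -3.33 and -1.12, and without A1 of 4.66, -3.16 and -1.27. How often other pairs of genes part in this way was not counted. For single genes tested, in effective CPM, both B libraries were above all A libraries for 31.2% and below for 26.7%. The genes of the pairs were chosen with earlier results of these data known.

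In contrast, Hspe1 to Hspd1, lid to barrel, was 0.0543, 0.0595 and 0.0471 for A1, A2 and A3, against 0.0691 for B1 and 0.0417 for B2. The variations overlapped and the log2 difference was 0.01. In a two-sided exact permutation test of 3 against 2 libraries, the smallest p possible is 0.1, which the first 3 ratios reached, with 0.133 after Benjamini-Hochberg adjustment over 4 ratios. The fourth gave an exact p of 1, so no ratio could pass 0.05 in this design.

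**Figure D3:**
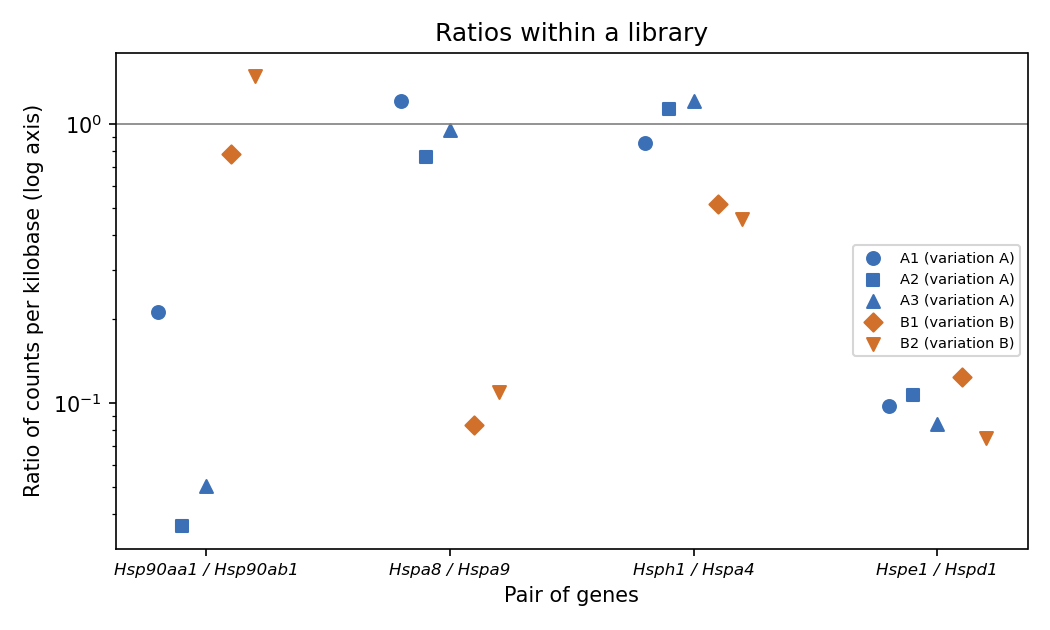
Ratio of counts per kilobase of exon (log axis) within each library for 4 pairs of genes, with the line at a ratio of 1 and blue symbols for variation A, orange for variation B. Hsp90aa1 to Hsp90ab1 is higher and Hspa8 to Hspa9 lower in both B libraries, and Hspe1 to Hspd1 overlaps.

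Other genes of the chaperone system were described from lists of names. Over all genes tested, edgeR called 11.0% higher and 12.4% lower with all libraries, and 20.8% and 15.0% without A1, and the counts below stand beside these shares. The most abundant gene of a list is the one with the highest mean raw counts per kilobase over the 5 libraries, which follow the deeper B libraries. Calls in the 7 lists shrank when a library other than A1 was left out. Without A2 or A3 they were Dnajc5 higher and Cdc37, Dnaja4, Fkbp8 and Hspbp1 lower, without B1 they were Dnajc5, Dnaja4 and Hspbp1, and without B2 Dnajc5 and Dnaja4.

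Among genes of the Hsp70 family and nucleotide exchange, 13 of 18 were tested, with a median log2 fold change of 0.13. By edgeR 0 were called higher (2 at an unadjusted p under 0.05, 0 by DESeq2). It called 3 lower (Bag6, Hspa14 and Hspbp1), against 2 by DESeq2. Without A1, 4 of 14 were called higher and 4 lower, with a median of 0.53. Hspbp1, a nucleotide exchange factor, had an effective CPM of 21.8, 70.4 and 88.9 for A1, A2 and A3, against 5.22 for B1 and 1.37 for B2, with a log2 fold change of -4.16 and an edgeR adjusted p of 0.00963. Bag5 was the most abundant by that measure, but in mean effective CPM per kilobase it was at 8.73, below Hspbp1 at 19.8 and Bag6 at 16.1. It was not called, at 0.98, and was called without A1, at 1.13. The heat-inducible Hspa1a and Hspa1b had 0 counts in all 5 libraries, below the floors given above. They lie in near-identical copies, and reads with several alignments were left out.

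Of the J proteins of the cytosol and nucleus, 22 of 23 were tested, with 3 called higher (Dnajb6, Dnajc5 and Dnajc6) and 1 lower, and a median of 0.46. The 3 called higher are near the share over all genes. Without A1, 6 of 23 were called higher and 1 lower, with a median of 0.71. Dnajc5, which encodes the cysteine string protein of vesicle membranes, was the most abundant, with an effective CPM of 47.6, 50.6 and 40.0 for A1, A2 and A3, against 493 for B1 and 539 for B2, and a log2 fold change of 3.48 (edgeR adjusted p of 0.000577). In variation A alone its mean effective CPM per kilobase, 6.62, was below the 29.7 of Dnaja4. Dnaja4 was counted 323, 216 and 51 times for A1, A2 and A3, against 27 for B1 and 2 for B2, although B libraries were deeper, and its log2 fold change was -8.23 (edgeR adjusted p of 0.00156). These genes of the same list were thus far apart.

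All 22 Hsp90 co-chaperones were tested, with 1 called higher and 6 lower by edgeR (1 and 5 by DESeq2), and a median of -0.29. Fkbp8, an immunophilin of organelle membranes, was 60.0, 136 and 147 for A1, A2 and A3, against 25.5 for B1 and 25.8 for B2 in effective CPM, at a log2 fold change of -2.14 (edgeR adjusted p of 0.0114). Fkbp4, an immunophilin of steroid receptor complexes and the most abundant, was at -1.35 (edgeR adjusted p of 0.0205), and Cdc37l1 was the member called higher, at 1.11 (edgeR adjusted p of 0.0250). The other members called lower were Cdc37, Ppp5c, Ruvbl2 and Telo2, and without A1 the list had 4 called higher and 6 lower, with a median of -0.45.

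Among 15 subunits of the TRiC chaperonin, of prefoldin and their partners, 1 was called higher, Pfdn5 at a log2 fold change of 1.57 (edgeR adjusted p of 0.0164), and 0 lower by edgeR (1 at an unadjusted p under 0.05, 0 by DESeq2), with a median of 0.22. Cct5, the most abundant, had an effective CPM of 331, 126 and 121 for A1, A2 and A3, against 273 for B1 and 278 for B2, with A1 the highest and the variations overlapping. Without A1, 6 were called higher, Cct5 among them at 1.27, and 1 lower, beside 20.8% and 15.0% over all genes, and the median was 0.75.

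For mitochondrial folding, import and proteolysis, 18 of 19 genes were tested, with a median of -0.08. By edgeR 0 were called higher (2 at an unadjusted p under 0.05, 0 by DESeq2). It called 3 lower (Clpp, Htra2 and Timm50), against 2 by DESeq2. Clpp, a matrix protease, was at -1.53 (edgeR adjusted p of 0.0289), and Lonp1, the most abundant and also a matrix protease, at 0.24, although in variation A alone Timm50 was higher per kilobase (19.5 against 15.0 in mean effective CPM). Without A1, 4 were called higher and 2 lower, the median turned to 0.21, and Timm50, at -0.93 (edgeR adjusted p of 0.00561) against -1.06 with all libraries, fell under the fold limit. Of 14 stress-inducible and heat shock factor genes, 8 were tested, 1 was called higher and 0 lower by edgeR (1 lower at an unadjusted p under 0.05, 0 by DESeq2), with a median of 0.30, and without A1, 3 were called higher and 1 lower, with the same median. Hsf2, a heat shock factor, was that gene, at 2.32 (edgeR adjusted p of 0.0170) and at 3.43 without A1, with 18, 6 and 2 counts for A1, A2 and A3, against 902 for B1 and 1171 for B2. Hsbp1, the most abundant of them, which binds heat shock factors, was at 1.03 and was not called, and was called without A1, at 1.46. In variation A alone Hmox1 was higher per kilobase (8.70 against 6.81 in mean effective CPM).

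All 14 counterparts of the endoplasmic reticulum were tested, with a median of 0.60. By edgeR 4 were called higher (Calr, Dnajb9, Hsp90b1 and Sec63), against 3 by DESeq2. It called 0 lower (1 at an unadjusted p under 0.05, 0 by DESeq2). Dnajb9 was counted 5, 3 and 1 times for A1, A2 and A3, against 196 for B1 and 504 for B2. It was thus at or under the floor of 3 counts in A2 and A3. Without A1, 7 were called higher and 1 lower, beside 20.8% and 15.0% over all genes, with a median of 1.01. Hsp90b1 encodes Grp94, the Hsp90 of that organelle. It had an effective CPM of 134, 27.2 and 19.3 for A1, A2 and A3, against 299 for B1 and 326 for B2, with a log2 fold change of 2.34 (edgeR adjusted p of 0.0418) that was 3.78 without A1. Hspa5, its Hsp70, was not called, at 0.05. Calr, the calcium-binding lectin and the most abundant of the list, was at 1.19 (edgeR adjusted p of 0.0303), although in variation A alone Hspa5 was higher per kilobase (66.9 against 56.9 in mean effective CPM).

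**Figure D4:**
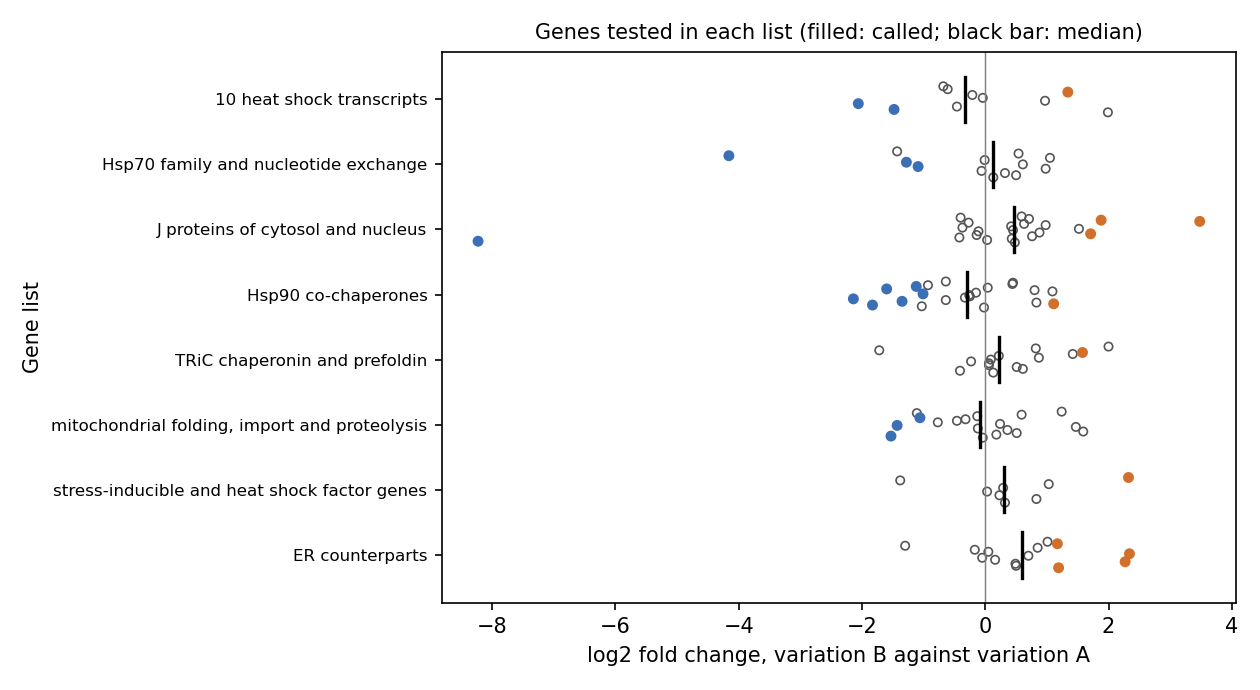
The log2 fold change of variation B against variation A (edgeR, all libraries, TMM) for each tested gene of the 10 heat shock transcripts and of 7 lists, with filled symbols for called genes (orange higher, blue lower) and black bars for medians. The endoplasmic reticulum list has its median furthest to the right, at 0.60, and the 10 heat shock transcripts the furthest to the left, at -0.33, but without A1 the 10 transcripts are at 0.56 and the Hsp90 co-chaperones, at -0.45, are furthest to the left.

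Genes that overlap or resemble a member bear on its count. Hspa9 holds in its introns 2 snoRNA genes that share no exon base with it. Gm26109 was counted 3, 9 and 1 times for A1, A2 and A3, against 18506 for B1 and 20592 for B2, a log2 fold change of 7.61 ± 0.44 (approximate SE) with an edgeR adjusted p of 0.000214. The pooled ratio of effective CPM, B to A, was 190.2 (exact 95% interval 111 to 357, from 13 counts in A). The snoRNA gene thus had 71.8% as many counts as its host in B1 and 78.9% in B2, and 0.452%, 1.62% and 0.769% in A1, A2 and A3. In Hspa8, Snord14c, Snord14d and Snord14e lie within an annotated exon and had 0 counts in all 5 libraries, and reads on both genes were left out by the counting. Hspd1 and Hspe1 run from neighbouring starts on opposite strands and share 112 exon bases, which were left out likewise.

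Near-identical copies were looked for by aligning the longest protein-coding transcript of each member to all transcripts. Hspa8 had 12 pseudogenes with at least 90% identity over 300 bases, the closest at 99.7%, and these held 0.625%, 0.714% and 0.813% as many counts as Hspa8 for A1, A2 and A3, against 1.91% for B1 and 1.73% for B2. Hsp90aa1 had 4, the closest at 99.5%, and Hspd1 had 5, the closest at 99.0%. Hspe1 had 4 similar genes, 3 of them pseudogenes, the closest at 99.0%, and Dnaja1 had 3 pseudogenes and Gm10475 beside the overlapping Smu1. At lower identity, Hsp90ab1 had 2 pseudogenes, the closest at 91.8%, and Hspa9 had 1, at 92.1%. Hspa4, Hsph1 and Stip1 had none. Reads that fit a gene and its copy equally were left out, so Hspa8, Hsp90aa1, Hspd1, Hspe1 and Dnaja1 may be undercounted, and Hsp90ab1 and Hspa9 where a read fits their copies as well. Of 13 copies named after a member, 5 had 0 counts in every library, and the highest count was 167, for Hspa9-ps1 in B1.

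Promoters were searched for the heat shock element, the sequence through which heat shock factors act on chaperone genes. RefSeq windows of 250 bases before to 50 after a start (GRCm38.p6) were at hand for 6 of the 10 members, Dnaja1, Hspa4, Hspd1, Hspe1, Hsph1 and Stip1. The motif was GAANNTTCNNGAA or TTCNNGAANNTTC, searched on both strands, and the shorter form GAANNTTC or TTCNNGAA, which it contains. The longer form was present in 3 members, Hspd1, Hspe1 and Hsph1, and in 4 of the 10 windows of the 6 members. It was present in 0.603% of 32851 windows. The shorter form was present in 4 members and in 15.1% of windows. Some members had several windows, so counts of members are not in the same unit as shares of windows. Hspd1 and Hspe1 share theirs, in the stretch between their starts, 216 bases apart, 72 bases before the start of Hspe1 and 127 before that of Hspd1. It has 4 units, found in 0.0244% of windows. In an alternative annotated transcript of Hspd1 it falls in the 5′ untranslated exon. The shared stretch, at chr1:55088053-55088082 on the plus strand, and the stretch of Hsph1, at chr5:149636279-149636308 on the minus strand, 15 bases past the RefSeq start of its shorter transcript and in the 5′ untranslated exon, read as follows, with the motif in capitals.
Hspd1 and Hspe1: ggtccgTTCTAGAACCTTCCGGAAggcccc
Hsph1: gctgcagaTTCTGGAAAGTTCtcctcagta
The 3 called members and Hsp90aa1 were not searched, so the motif is not set against the calls here. A match is a description and not a site shown to be bound.

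The genes whose profile over the 5 libraries was nearest to the mean profile of the members, among 4454 protein-coding genes with at least 10 counts in every library, were Eif4a1, Nsun2, Lztfl1, Dhx9 and Usp7. Their Euclidean distances, in centred log2 effective CPM, were 0.18, 0.20, 0.24, 0.26 and 0.29. Eif4a1, an RNA helicase of translation initiation, had an effective CPM of 144, 57.2 and 41.5 for A1, A2 and A3, against 65.3 for B1 and 79.0 for B2. A1 was the highest and the B libraries lay between it and the other A libraries. These names depend on Dnaja1, whose 0 in A3 enters the mean through the pseudocount. With Dnaja1 left out of the mean, a choice made after seeing the data, 1 of the 5, Usp7, was again among the 5 nearest, and the distance of the other 9 members to the mean ran from 0.24 for Hsph1 to 2.77 for Hsp90aa1.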

How the data were processed

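Surface-seq libraries from EL4 cells were compared by technical variation, 3 of variation A and 2 of variation B, grouped by the library names in the labels. Before deposit, the authors used Trimmomatic 0.36 for trimming, STAR 2.7.3a for alignment to GRCm38, and featureCounts 1.6.4 for counting over GENCODE M24 exons. Deposited values are raw counts per gene, without normalization, with 1187117 to 22980172 counts per library. The command set no strand, and reads with several alignments or over several genes were left out. Names came from GENCODE M21 for 55144 of 55385 genes.

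Variation B was compared with variation A in edgeR 4.0.16 under R 4.3.3 (filterByExpr, TMM, glmQLFit and glmQLFTest, Benjamini-Hochberg over all genes tested). The fit was also run on simulated counts, which does not show how well it calls genes in these data. DESeq2 1.42.0, other scalings, other filters on low counts, protein-coding genes only, a replicate block, adjusted p without a fold limit, and each library left out were alternatives. The SE is the log2 fold change divided by the square root of the test's F. Effective CPM used the TMM effective library size, with a pseudocount of 0.5 for profiles. Ratios were tested by exact permutation with scipy 1.17.1 in Python 3.11.15. Transcripts were aligned with blastn 2.17.0. Named genes were all members, from each list the gene with the highest mean counts per kilobase and the called gene with the largest fold in each direction, and the 5 nearest profiles. Other genes named in small counts were named after their values were seen. Some genes of the lists are not reported here. The members and lists were chosen with earlier results of these data known.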

Additional observations from a re-analysis of the deposited data

How the results depend on the processing

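Counts of calls moved with the processing, and the cause was not tested. Genes called higher numbered 1135, and 5668 with library totals, 592 with at least 10 counts in every library, and 161 to 2526 with 1 library left out. Genes called lower numbered 1276, and 301, 722 and 137 to 1821 under the same alternatives. Members called higher numbered 1, and 2 with DESeq2, 2 with no filter on low counts, 3 with library totals and 0 to 3 with 1 library left out. Members called lower numbered 2, and 0 with library totals and 0 to 2 with 1 library left out. With 1 B library left, that library is assumed to vary like those of variation A.

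With the replicate number as a block, 761 genes were called higher and 813 lower, and 1 member was called each way, Hsp90aa1 higher in place of Hspa9, and Hspa8 lower, while Hsp90ab1 was not called. Deviations of same-numbered libraries correlated at -0.10 and -0.03 across 10287 genes, which gives no sign of pairing by number. So few pairs cannot show that there is none. Under the block the log2 ratio of Hspe1 to Hspd1 was -0.08, against 0.01, and it ran from -0.36 to 0.37 with 1 library left out.

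Log2 fold changes that changed sign were those of members not called. Hsph1 went from -0.04 to 0.03 with DESeq2, 1.32 with library totals, 0.17 with no filter, 0.18 with at least 10 counts in every library, and -0.17 to 0.57 with 1 library left out. With library totals, Dnaja1 was 1.14, Stip1 0.94, Hspd1 0.66 and Hspe1 0.64. With 1 library left out, Dnaja1 ran from -0.53 to 0.72, Hspd1 from -0.88 to 0.55 and Hspe1 from -1.01 to 0.49. The minimum of 10 counts per library left Dnaja1 and Hspe1 untested. The share of counts on the members, B minus A, was 0.248 percentage points of all counts, 0.206 without rRNA and mitochondrial genes, and 0.0847 of protein-coding counts. With 1 library left out, chosen after seeing the data, it ran from 0.214 to 0.307 of all counts and from 0.0360 (without B2) to 0.167 (without A1) of protein-coding counts. In the shallow A3 library Dnaja1 had 0 counts and Hspe1 had 4. For Dnaja1 the approximate SE was 0.71 with all libraries, 0.51 without A3 and 0.63 without A1. For Hspe1 it was 0.59 with all libraries, 0.60 without A3 and 0.42 without A1.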
